A study of Morchella sextelata with 15 samples.

Results

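S-metolachlor left 127 transcripts of Morchella sextelata mycelium at 25% of their control level or less, while trifluralin, pendimethalin and acetochlor left the means of the same transcripts between 0.5 and 2 times control. These 127 were picked from 20602 assembled transcripts on FPKM, fragment numbers adjusted for the length of the transcript and the size of the library, so that levels of different transcripts can be compared. A transcript was taken when its control mean was at least 10 FPKM, its S-metolachlor mean was at most 25% of that, its highest S-metolachlor library lay below the other 12 libraries, and the mean of each of the other 3 herbicides lay between 0.5 and 2 times control. The 100 transcripts with the highest control mean were left out, of which 7 met the remaining conditions. Every group entered this choice, so folds and group differences of these transcripts are given as a description, their counts of calls support nothing, and "alone" stands for the range in the rule.

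Morchella sextelata is a cultivated black morel, an ascomycete fungus, and its wild-type mycelium was sampled in 15 libraries, 3 in each of 5 groups. The control group had potato dextrose agar with no herbicide, and the others had the same agar with trifluralin, pendimethalin, S-metolachlor or acetochlor at 10 times the normal application rate of each product, at 20 °C for 5 days. The doses are thus equal multiples of different rates and not equal concentrations. The labels name no strain, and nothing in them says whether replicates came from separate cultures. The p-values therefore set differences against the spread between these libraries, which may not be that between cultures.

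S-metolachlor and acetochlor are chloroacetanilides. In plants these compounds block the elongases that build very-long-chain fatty acids, which go into waxes, sphingolipids and membranes. Trifluralin and pendimethalin are dinitroanilines, which bind plant tubulin and stop microtubules from forming. A lower transcript level can come from less transcription or from faster decay, and sequencing of total RNA measures only the level that results from both. In bulk mycelium, fewer cells of a kind and less RNA per cell cannot be told apart.

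The transcripts carry names of a Trinity assembly, which joins reads into transcripts without a genome. Of 20602 names, 0 were found among the 13182 genes of the reference table, so no gene product or role can be given here, and transcripts are called by their assembly names. Library totals ranged from 22923346 to 24766457 expected counts. In S-metolachlor replicate 2 the transcripts described here were least reduced, and it held the highest of the 3 S-metolachlor values for 87 of the 127, against 18 for replicate 1 and 22 for replicate 3. Control replicate 2 held the highest control value for 52 of them, and control replicate 3 the lowest for 56.

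Of the 20602 transcripts, 6185 had a control mean of at least 10 FPKM outside the 100 highest. In 622 of these the S-metolachlor mean was at most 25% of control, and in 373 of the 622 every S-metolachlor library also lay below the other 12. The condition on the other herbicides then kept 127 and removed 246. Among the 246 removed, at least 1 other herbicide mean lay under 50% of control in 221, and all 3 did in 64. At least 1 other herbicide mean lay over 2 times control in 35. With the herbicides exchanged in the rule, trifluralin, pendimethalin and acetochlor each gave 0 transcripts. A mean at most 25% of control occurred in 226, 180 and 158 transcripts with these, but all 3 libraries lay below the other 12 in only 3, 2 and 4 of them. When the S-metolachlor libraries were left out of that exchanged rule, it gave 0, 1 and 3 transcripts. The herbicides also differed in spread between replicates. In 4573 of the 6185 transcripts the condition on the other herbicides was met. Over these the median SD was 7.41% of the mean with S-metolachlor. It was 13.5% with trifluralin, 17.4% with pendimethalin and 17.6% with acetochlor. Closer replicates meet the condition on single libraries more easily, and how far this entered the counts was not tested.

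**Figure D1:**
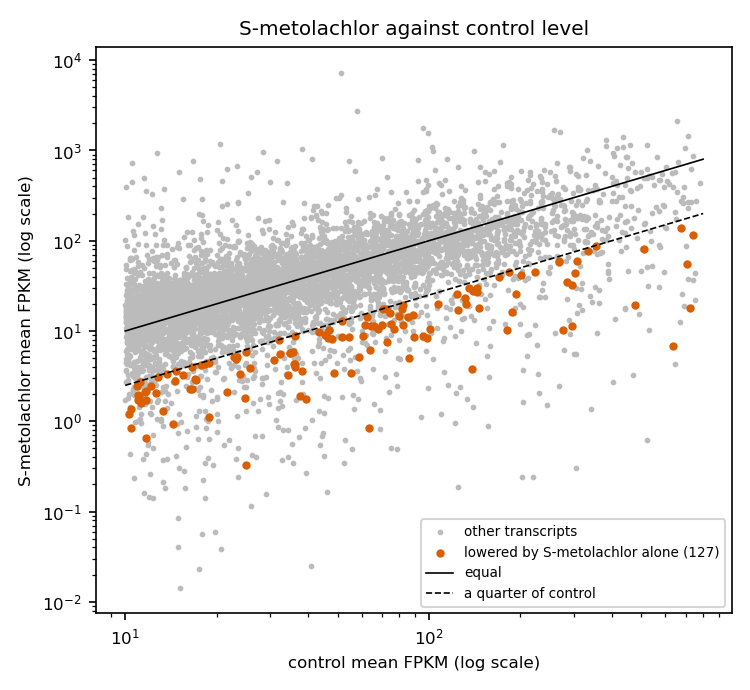
S-metolachlor mean against control mean in FPKM, both on log scales, for the 6185 transcripts with a control mean of at least 10 FPKM outside the 100 highest. Orange points are the 127 transcripts, grey points are the others, and 3 transcripts at 0 with S-metolachlor are not drawn; the orange points lie under the dashed line at 25% of control across the whole range of control levels.

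Summed over the 127 transcripts, the level was low in all 3 S-metolachlor libraries and similar in the other groups. The sum was 14124, 14922 and 12963 FPKM in the control libraries. It was 13361, 13488 and 11755 FPKM with trifluralin, 11438, 12160 and 12825 FPKM with pendimethalin, and 13638, 12904 and 12373 FPKM with acetochlor. With S-metolachlor it was 1705, 2218 and 1922 FPKM. The 12 other libraries overlap one another in this sum, and each lies more than 5 times above the highest S-metolachlor library. As a share of all FPKM in the library, the transcripts took 2.32 ± 0.145% in control (SD, n = 3), 2.16 ± 0.180% with trifluralin, 2.03 ± 0.106% with pendimethalin, 2.19 ± 0.175% with acetochlor and 0.341 ± 0.0412% with S-metolachlor.

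The size of the reduction was uneven. The control mean was 4.03 to 93.1 times the S-metolachlor mean, with a median of 6.09, and quartiles of 4.74 and 9.38. In 40 transcripts the ratio was under 5, in 48 it was from 5 to under 8, and in 24 from 8 to under 16. In 15 it was at least 16. No transcript was at 0 in any S-metolachlor library. The lowest expected count in a single S-metolachlor library was 2.69, and in 3 of the 127 transcripts the lowest S-metolachlor library held fewer than 10 expected counts, whereas in 91 it held at least 100. Across the 127 transcripts the ratio had a Spearman correlation of 0.11 with the control mean and 0.05 with relative length, and transcripts are not independent replicates.

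**Figure D2:**
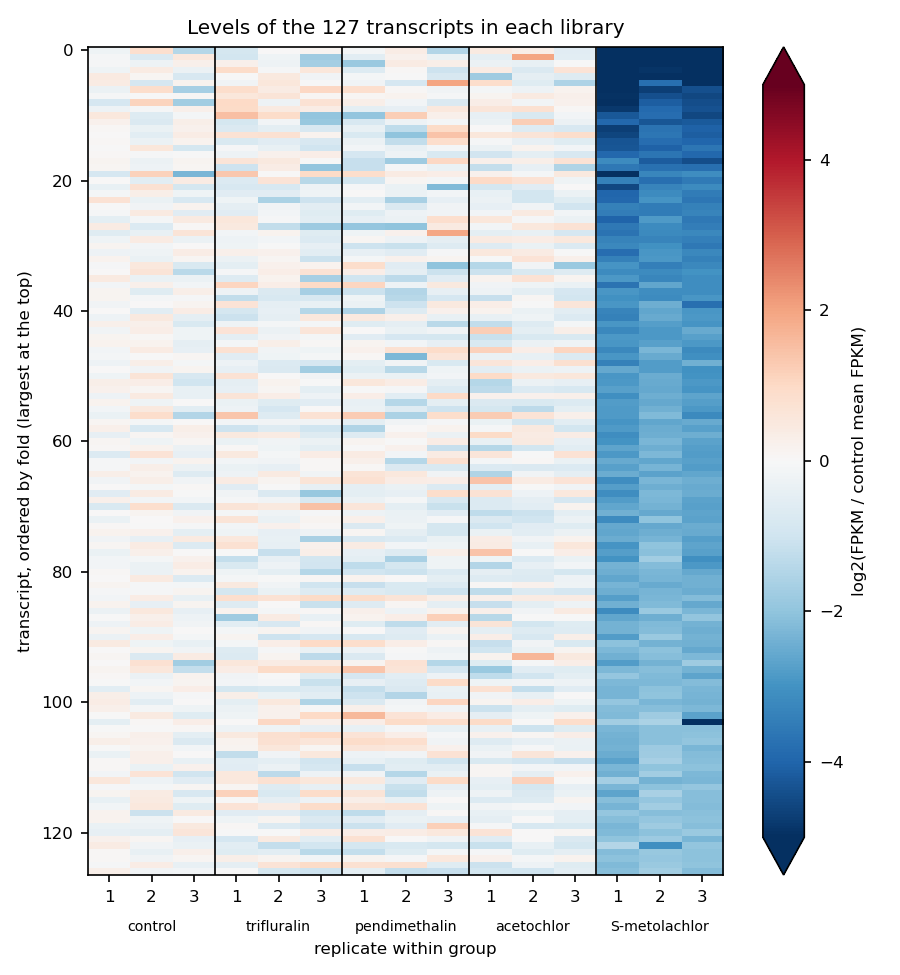
Log2 ratio of the FPKM in each of the 15 libraries (columns, grouped, with replicate numbers) to the control mean, for the 127 transcripts (rows, largest ratio of control to S-metolachlor at the top). Blue is below and red above the control mean, and the scale ends at 5 in both directions; the 3 S-metolachlor columns are blue in every row, while single libraries of the other groups vary both ways.

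The 3 most abundant transcripts in control fell to different depths. TRINITY_DN10562_c0_g1_i1_4 was at 786, 685 and 753 FPKM in control, 666, 659 and 657 with trifluralin, 524, 648 and 716 with pendimethalin, 585, 393 and 514 with acetochlor, and 95.3, 124 and 129 with S-metolachlor. Every trifluralin and acetochlor library lay below the lowest control, acetochlor reached lowest of these, and pendimethalin overlapped the controls. S-metolachlor lay at 15.6% of control, a 6.40-fold difference of means. TRINITY_DN6854_c0_g1_i1_1 was at 622, 960.3 and 590 FPKM in control, 1386, 700 and 1081 with trifluralin, 466, 761 and 357 with pendimethalin, 972, 433 and 1171 with acetochlor, and 12.6, 24.0 and 17.1 with S-metolachlor. Its trifluralin and acetochlor libraries reached above the controls, and its S-metolachlor mean was 40.5-fold below control. TRINITY_DN4930_c0_g2_i2_4 was at 767, 602 and 759 FPKM in control, 347, 911 and 178 with trifluralin, 315, 674 and 557 with pendimethalin, 313, 539 and 252 with acetochlor, and 59.0, 53.9 and 51.8 with S-metolachlor. Here the trifluralin libraries spread 5-fold around the controls, the S-metolachlor libraries were close to one another, and the S-metolachlor mean was 12.9-fold below control.

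The 3 transcripts with the least left under S-metolachlor held 1.07 to 1.31% of their control mean. TRINITY_DN7006_c0_g1_i2_2 was at 549, 1128 and 239 FPKM in control, 351, 651 and 699 with trifluralin, 601, 822 and 229 with pendimethalin, 880, 773 and 430 with acetochlor, and 5.25, 9.58 and 5.75 with S-metolachlor. The controls differed nearly 5-fold among themselves, and the ratio of means was 93.1, or 57.4 without control replicate 2. TRINITY_DN11413_c0_g1_i1_5 was at 60.6, 39.0 and 91.5 FPKM in control, 33.5, 54.2 and 18.7 with trifluralin, 44.5, 72.9 and 50.3 with pendimethalin, 46.4, 249.9 and 44.3 with acetochlor, and 0.770, 0.852 and 0.880 with S-metolachlor. Acetochlor replicate 2 stood above all other libraries of this transcript, and the ratio of control to S-metolachlor was 76.3. TRINITY_DN3881_c0_g1_i1_2 was at 24.2, 20.7 and 30.0 FPKM in control, 29.9, 21.1 and 7.74 with trifluralin, 6.88, 32.9 and 30.7 with pendimethalin, 20.1, 19.3 and 24.7 with acetochlor, and 0.276, 0.488 and 0.220 with S-metolachlor. Trifluralin replicate 3 and pendimethalin replicate 1 were low for this transcript but stayed at least 14 times above the highest S-metolachlor library, and the ratio of means was 76.1. Both ratios rest on few fragments, since its S-metolachlor libraries together held 26.0 expected counts and the lowest of them 5.84.

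**Figure D3:**
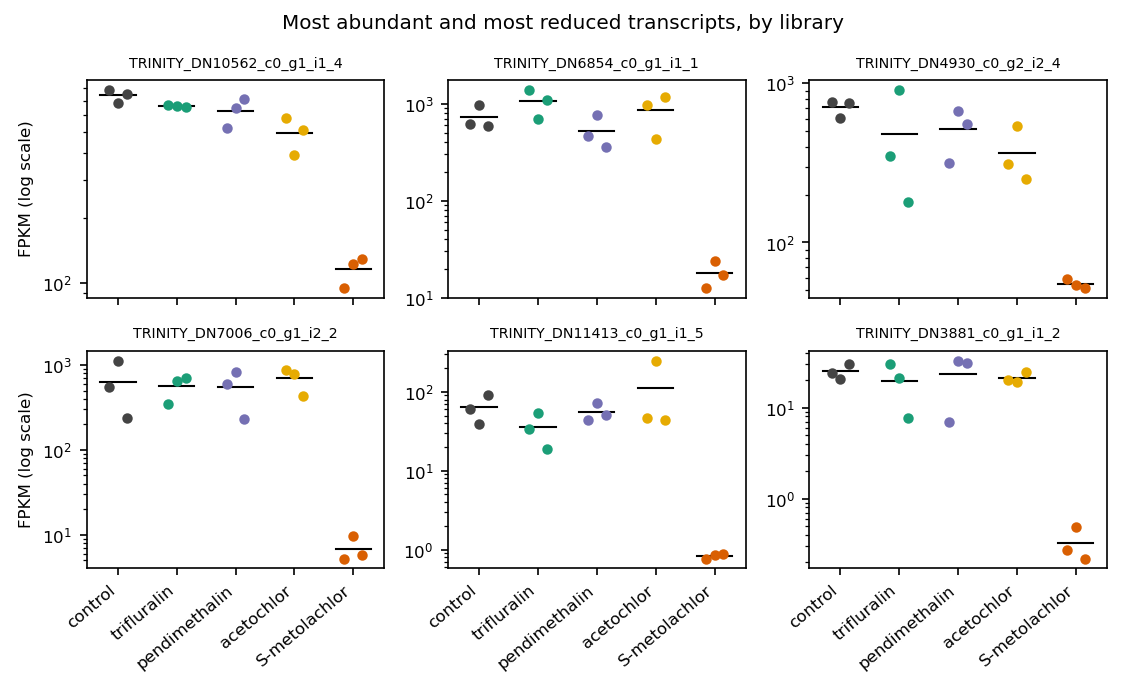
FPKM on a log scale in the 15 libraries for the 3 transcripts with the highest control mean (upper row) and the 3 with the lowest share of control left under S-metolachlor (lower row). Points are libraries and bars are means of 3; in all 6 panels the S-metolachlor points lie apart from the rest, by a factor of 3.05 for TRINITY_DN10562_c0_g1_i1_4 and 23.9 for TRINITY_DN7006_c0_g1_i2_2 between the nearest libraries.

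At the limit of 25% of control, the transcripts just inside and just outside differ little. TRINITY_DN7334_c0_g1_i2_3, inside, was at 85.4, 61.9 and 63.8 FPKM in control and 15.9, 20.9 and 15.6 with S-metolachlor, which is 24.8% of control. TRINITY_DN8002_c0_g2_i4_3, also inside at 24.8%, was at 30.6, 41.2 and 24.7 FPKM in control and 6.99, 8.98 and 7.93 with S-metolachlor. Just outside, TRINITY_DN3131_c0_g1_i2_3 was at 54.8, 43.6 and 68.3 FPKM in control and 14.7, 14.9 and 12.4 with S-metolachlor, and TRINITY_DN2524_c0_g1_i1_1 at 76.6, 71.9 and 72.7 against 19.5, 18.1 and 18.3 FPKM, both 25.2% of control. At the limit of 10 FPKM in control, TRINITY_DN12358_c0_g1_i1_2 and TRINITY_DN6966_c0_g1_i1_1 were inside with control means of 10.3 and 10.4 FPKM, and TRINITY_DN888_c0_g2_i1_2 and TRINITY_DN14270_c0_g1_i1_1 outside with 9.96 and 9.89 FPKM. The S-metolachlor means of these last 4 were 1.20, 0.839, 2.39 and 0.737 FPKM. The control mean of TRINITY_DN6966_c0_g1_i1_1 came from 5.83, 23.3 and 2.15 FPKM, and its ratio to S-metolachlor was 12.4, or 4.76 without control replicate 2.

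The gap between S-metolachlor and the rest also varied. The lowest of the 12 other libraries was 1.04 to 23.9 times the highest S-metolachlor library, with a median of 2.39. The gap was at least 2-fold in 89 transcripts and at least 4-fold in 25, and it was under 1.2-fold in 5. The narrowest gap was in TRINITY_DN8585_c0_g1_i1_2, chosen for this after its values were seen, at 205, 338 and 60.2 FPKM in control and 28.9, 39.6 and 58.1 FPKM with S-metolachlor. Its control replicate 3 lay just above S-metolachlor replicate 3, and its ratio of means was 4.77, or 3.14 without control replicate 2. Another 13 transcripts met every condition except that on single libraries.

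Transcripts chosen without 1 of the S-metolachlor libraries were mostly low in the library left out. When the rule was applied to 14 libraries without S-metolachlor replicate 1, it gave 119 transcripts, and in replicate 1 itself 109 of them (91.6%) were at most 25% of the control mean, against 10.8% of the 6185 transcripts. Without replicate 2 it gave 150, of which 104 (69.3%) were at most 25% of control in replicate 2, against 9.23% of the 6185. Without replicate 3 it gave 128, of which 114 (89.1%) were at most 25% in replicate 3, against 10.7%. Replicate 2 was thus the least reduced when left out, in the same way as when it was included. All 119, 150 and 128 were at most 50% of control in the left-out library, against 23.1, 20.2 and 22.3% of the 6185. In it 118, 142 and 126 lay below the other 12 libraries, all of which entered the choice. No share over the 6185 was taken for this, so nothing is read from it. The control libraries were shared between choice and reading.

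**Figure D4:**
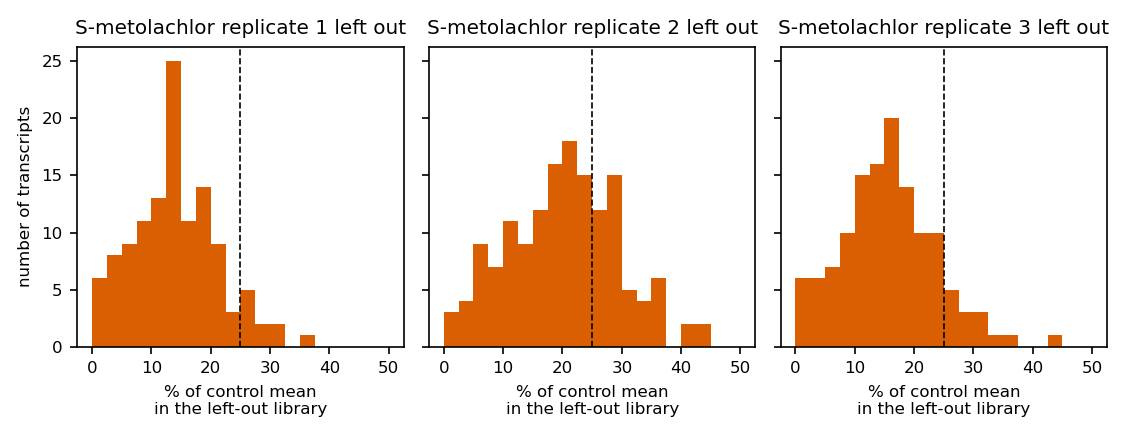
Level in the left-out S-metolachlor library as a percent of the control mean, for the 119, 150 and 128 transcripts chosen without replicate 1, 2 and 3 (left to right). Bars count transcripts and the dashed line marks 25%; most transcripts lie left of it in each panel, fewest in the panel for replicate 2, with medians of 13.6, 20.5 and 15.3%.

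With the other 3 herbicides the 127 transcripts were spread around and mostly somewhat below control. Trifluralin left them at a median of 88.6% of control (52.2 to 191%), pendimethalin at 88.0% (52.7 to 199%) and acetochlor at 84.6% (51.3 to 189%). The median over the 6185 transcripts, which the rule does not bound, was 114%, 113% and 104%. Rescaling of the FPKM lowered the medians of both sets, as given at the end. The mean lay below control in 79 transcripts with trifluralin, 80 with pendimethalin and 83 with acetochlor. All 3 were below control in 48 transcripts and above it in 17. Of the 4573 transcripts under the same bounds, all 3 were below control in 806 and above it in 1966. These ratios share the control libraries, and the rule bounds them. Among the 4 groups other than S-metolachlor, control was the highest for 48 transcripts, acetochlor for 29, trifluralin for 26 and pendimethalin for 24, while acetochlor was the lowest for 53. In 34 transcripts at least 1 of the 3 herbicide means lay under 0.6 of control, near the lower limit of the rule.

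**Figure D5:**
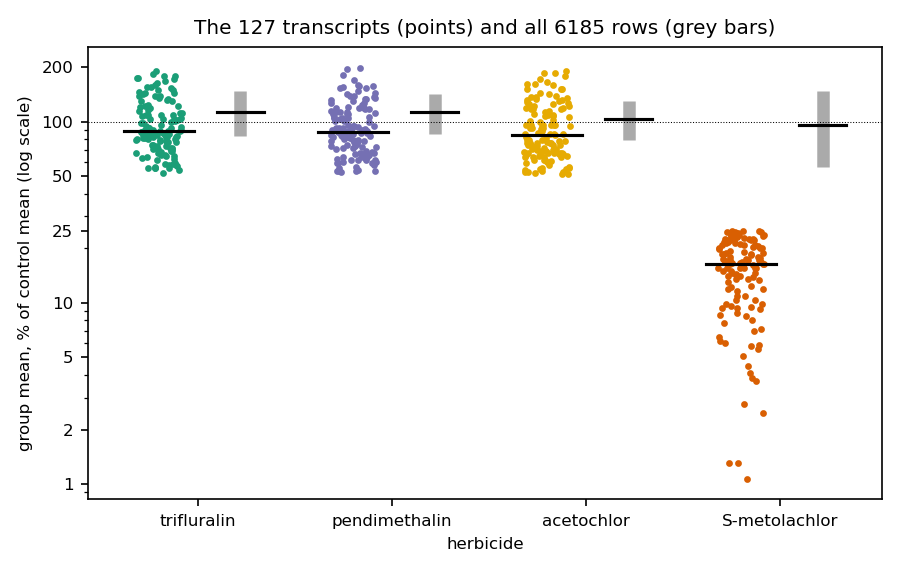
Group mean as a percent of the control mean, on a log scale, for each herbicide. Coloured points are the 127 transcripts with a black bar at their median, and grey bars give the quartiles of all 6185 transcripts with a control mean of at least 10 FPKM outside the 100 highest, with a black bar at the median; the points for trifluralin, pendimethalin and acetochlor fill the range the rule allows, with medians of 88.6, 88.0 and 84.6%, against 16.4% for S-metolachlor.

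Some of the transcripts were also called with another herbicide. In the edgeR fit over all 17555 transcripts tested, 15 of the 127 were called lower with pendimethalin at an adjusted p under 0.05, where 5.54% of all tested were called lower. With it 0 were called higher, against 7.35% of all tested. With acetochlor 14 were called lower and 0 higher, against 4.46% and 5.26%. With trifluralin 3 were called lower and 1 higher, against 7.00% and 7.68%. Since the rule used these means, nothing is read from the counts. The fit also shared its estimate of spread over all 5 groups, although the groups differed in spread. With only the compared groups in it, calls over all transcripts went from 2578 to 1268 with trifluralin. They went from 2263 to 389 with pendimethalin and from 1706 to 861 with acetochlor. In total 25 of the 127 (19.7%) were called with at least 1 of these herbicides, against 21.9% of all tested. TRINITY_DN7908_c0_g1_i3_3, named after its values were seen, was called lower with all 3. It was at 137, 137 and 157 FPKM in control, 78.3, 114 and 91.0 with trifluralin, 91.8, 85.2 and 70.4 with pendimethalin, 60.2, 88.3 and 79.1 with acetochlor, and 26.7, 28.6 and 26.0 with S-metolachlor. In it every herbicide library lay below every control, and S-metolachlor lay lowest.

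Against acetochlor, the other chloroacetanilide at the same multiple of its own rate, the S-metolachlor mean was at most 25% in 87 of the 127 transcripts. It was at most 25% of the trifluralin mean in 96 and of the pendimethalin mean in 102, and at most 25% of every other group in 72. All 127 were called lower with S-metolachlor than with acetochlor, where 17.9% of all tested were called lower, and lower than control, where 21.7% were. The choice fixes these counts. Both compounds carry a chloroacetylated aniline nitrogen, and they differ in the ether side chain on that nitrogen, which is branched and chiral in S-metolachlor.

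Outside S-metolachlor the transcripts differed in how steady they were. The highest of the 12 other libraries was 1.63 to 13.3 times the lowest, with a median of 3.15. The SD of log2(FPKM + 1) over these 12 libraries had a median of 0.49, against 0.33 over the 4573 transcripts of the same control range whose other 3 herbicide means were also between 0.5 and 2 times control. The steadiest was TRINITY_DN2043_c0_g1_i1_2, at 53.5, 46.2 and 56.0 FPKM in control, 64.4, 57.6 and 46.8 with trifluralin, 57.4, 49.7 and 75.3 with pendimethalin, 59.6, 48.9 and 59.0 with acetochlor, and 12.6, 13.6 and 12.4 with S-metolachlor. Its 12 other libraries overlapped between groups and none came within 3 times of S-metolachlor. TRINITY_DN3800_c0_g1_i3_2, next in steadiness, was at 459.7, 474 and 498 FPKM in control and 15.6, 22.6 and 20.3 with S-metolachlor, a 24.5-fold ratio. Its other libraries ranged from 457 to 749 FPKM, so that the nearest of them was 20.2 times the highest S-metolachlor library.

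The least steady were TRINITY_DN1632_c0_g1_i1_1 and TRINITY_DN5583_c0_g2_i1_1. The first was at 85.6, 40.1 and 66.8 FPKM in control, 90.5, 27.2 and 18.3 with trifluralin, 16.8, 15.9 and 86.9 with pendimethalin, 58.6, 93.7 and 106 with acetochlor, and 5.38, 7.29 and 5.83 with S-metolachlor. Single libraries of trifluralin and pendimethalin were as high as the controls and the others far lower, and the S-metolachlor mean was 10.4-fold below control. The second ranged from 3.02 FPKM in trifluralin replicate 3 and pendimethalin replicate 1 to 33.2 FPKM in trifluralin replicate 1, with 16.7, 7.48 and 11.0 FPKM in control and 0.626, 0.839 and 0.502 FPKM with S-metolachlor. With group means removed, the median correlation between 2 of the 127 transcripts over the 12 other libraries was 0.04, against 0.11 in the 4573, given as a description of these libraries.

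The 127 transcripts came from all control levels, with larger shares at 50 FPKM or more, and were mixed in length and name. They made up 2.05% of the 6185 transcripts, namely 1.55% of those with a control mean of 10 to under 20 FPKM, 1.41% at 20 to under 50, 2.84% at 50 to under 100 and 3.61% at 100 or more. Their relative length, taken from the ratio of expected count to FPKM, had a median of 0.991 times that of the 6185. Each assembly name ends in 1 of 5 digits whose meaning the sources used here do not give, and 27, 29, 26, 26 and 19 of the 127 ended in 1 to 5. These are 1.80, 3.05, 1.92, 2.31 and 1.51% of the transcripts with that digit among the 6185.

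The 127 names belong to 127 different Trinity genes, the assembler's groups of isoforms. Another 112 rows share a Trinity gene name with 1 of them, but 0 rows in the whole table share both that name and the last digit with another row. Over all 8235 pairs of rows with the same Trinity gene name, the correlation of mean log2(FPKM + 1) was 0.08 and the median correlation across the 15 libraries was 0.02, so a shared name did not go with a shared level or pattern. Of the 101 such rows tested, 19 were called lower and 25 higher with S-metolachlor against control (edgeR adjusted p under 0.05), which is 18.8% and 24.8%, where 21.7% and 24.4% of all tested were called. Among those called with a mean of at least 10 FPKM in the higher group, TRINITY_DN4501_c0_g1_i2_2 and TRINITY_DN4552_c0_g1_i4_1 rose most, from control means of 69.9 and 2.37 FPKM to 817 and 22.7 FPKM with S-metolachlor. With trifluralin, pendimethalin and acetochlor the former was at means of 91.2, 124 and 108 FPKM. The latter was at 9.31, 11.6 and 2.30 FPKM with these, so it was also above control with trifluralin and pendimethalin. TRINITY_DN9108_c0_g1_i1_4 fell most, from 5.33, 8.30 and 26.8 FPKM to 0.441, 0 and 0.103 FPKM, followed by TRINITY_DN4542_c0_g1_i2_1, from a mean of 11.3 to 1.95 FPKM. With trifluralin, pendimethalin and acetochlor, TRINITY_DN9108_c0_g1_i1_4 had means of 1.72, 23.0 and 1.38 FPKM. TRINITY_DN4542_c0_g1_i2_1 had 4.41, 6.55 and 7.45 FPKM.

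Rows that share the cluster number and the last digit with 1 of the 127 transcripts were looked at after this. Over the whole table, 1623 pairs of this kind had a median correlation of 0.33 across the 15 libraries. There were 28 such rows beside 15 of the 127, and their correlation with the transcript of that set ranged from -0.91 to 0.77, with a median of -0.16 and a value below 0 in 15. More of the 28 came from cluster DN8048, all beside TRINITY_DN8048_c0_g6_i3_3, than from any other cluster, so they are not independent. The correlation also includes the S-metolachlor libraries that the rule used, so it cannot be set against 0.33. With S-metolachlor 8 of the 28 (28.6%) were called lower and 8 higher (edgeR adjusted p under 0.05), against 21.7% and 24.4% of all tested, and 5 were called lower without S-metolachlor replicate 2. TRINITY_DN8048_c0_g10_i1_3, named after its values were seen and with a correlation of 0.60, stood at 323 ± 24.0 FPKM in control (SD, n = 3) and 72.6 ± 6.09 with S-metolachlor, a difference tested at a log2 fold change of -2.38 with SE 0.35 (edgeR adjusted p = 0.000213). These levels are close to those of TRINITY_DN8048_c0_g6_i3_3, 1 of the 127, at 334 ± 71.4 and 77.5 ± 26.3 FPKM. The former was, however, also at 109 ± 37.5 FPKM with trifluralin, 86.6 ± 28.9 with pendimethalin and 84.5 ± 36.7 with acetochlor, while the latter was at 212 ± 35.6, 214 ± 46.2 and 173 ± 23.6 FPKM. The latter was itself called lower than control with acetochlor, at a log2 fold change of -1.03 (edgeR adjusted p = 0.0279). It was also called lower with trifluralin, at -0.83 (edgeR adjusted p = 0.0499). How the counting assigned reads common to several transcripts is not stated, so single values in a cluster are uncertain.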

How the data were processed

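The authors deposited 2 tables of 20602 transcripts in 15 libraries. The authors' first table gives expected counts, that is fragments estimated for each transcript, and the second gives FPKM as the authors scaled it. The submitters' processing notes name Trimmomatic, Bowtie2 and DESeq, with no versions, and mm10, a mouse build to which Trinity names do not belong. No source used here names the counting program. The rule and every level use the deposited FPKM. For calls, expected counts were rounded. Low transcripts were removed by filterByExpr at a minimum count of 10 and a total of 15, which left 17555, all 127 among them. After TMM scaling in edgeR 4.0.16 all 15 libraries entered 1 quasi-likelihood fit with Benjamini-Hochberg adjustment. The code was tried on simulated counts with the same spread in every group and a change only with S-metolachlor. That trial cannot show how the fit behaves where groups differ in spread, as they do here. DESeq2 1.42.0 and limma 3.58.1 served as alternatives. The members and lists were chosen with earlier results of these data known.

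Named transcripts are the 3 with the highest control mean, the 3 with the lowest ratio, those next to the limits of 25% and 10 FPKM, the 2 steadiest and 2 least steady, and the 2 rows of shared Trinity gene name with the largest called rise and fall. No Trinity gene held more than 1 member, so the rule on the gene with most members named none. Relative length used expected counts above 5.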

Additional observations from a re-analysis of the deposited data

How the results depend on the processing

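The rule gave 222 transcripts at a limit of 33.3% of control and 39 at 12.5%. It gave 45 when the other herbicides had to lie between 0.667 and 1.5 times control. On FPKM summed per Trinity gene it gave 83, in which case 77 of the 127 Trinity genes remained. A shared Trinity gene name did not go with a shared level or pattern, so these sums may join unrelated transcripts. With a control mean of at least 5 FPKM the rule gave 157, and with at least 20 it gave 96. It gave 140 without the condition on single libraries and 134 with no row left out for its abundance. Leaving out 1 library gave 112 to 150 transcripts, with the fewest of the 127 kept, 92, without control replicate 2, whose removal lowered the ratio of control to S-metolachlor by more than 1.5 times in 8 transcripts. Without S-metolachlor replicate 2 that ratio rose from 27.1 to 52.3 in 1, TRINITY_DN10433_c0_g1_i1_1.

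TMM factors moved the median log2 ratio of S-metolachlor to control over the 6185 transcripts by -0.24. On FPKM rescaled by them the rule gave 163 transcripts, 104 of the 127 among them, and the 23 lost all had another herbicide outside the range of 0.5 to 2 times control. The medians of the 127 were then 77.5% of control with trifluralin, 77.8% with pendimethalin, 78.3% with acetochlor and 14.1% with S-metolachlor, where those of the 6185 were 99.5, 98.5, 96.9 and 81.3%.

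Calls against control over all transcripts, 2578 with trifluralin, 2263 with pendimethalin and 1706 with acetochlor, were 4015, 3555 and 2847 with DESeq2 and 1268, 389 and 861 with only the compared groups in the fit. Leaving out 1 library gave 884 to 3229, 795 to 3046 and 601 to 1829. The 8098 calls with S-metolachlor ranged from 6506 to 7814 and the 6555 against acetochlor from 4695 to 5534. Limma on log2(FPKM + 1) placed 34.9% of the calls with S-metolachlor lower, against 47.1%. The 19 rows of shared Trinity gene name called lower were 12 in that run and 12 to 19 without 1 library. No row had the last digit of its namesake, so that alternative gave no value.

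With the replicate number as a block the calls were 1890, 1735, 7666 and 1276 for trifluralin, pendimethalin, S-metolachlor and acetochlor, and 5909 for S-metolachlor against acetochlor. Same-numbered libraries deviated from their group means with correlations from -0.40 to 0.36, and differently numbered ones from -0.37 to 0.40. No pairing by number was seen in this, but its absence is not established, since the labels do not say how replicates were made. Counting error limits the 3 transcripts with fewer than 10 expected counts in a library.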
